A study of Mus musculus with 16 samples.

Results

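Mature medullary thymic epithelial cells sorted for high CD80 were set against thymic dendritic cells. These are the antigen-presenting cells of the thymic medulla that show self-peptides to developing T cells. The comparison used 4 of the 16 arrays of the series, chosen by their titles: 2 arrays of wild-type CD80hi medullary thymic epithelial cells (CD80hi mTEC) and 2 of wild-type thymic dendritic cells (tDC). The CD80hi mTEC were sorted by flow cytometry for high surface CD80, a ligand that costimulates T cells. The tDC were also sorted by flow cytometry, with the sort markers not given in the sources used here. Strain, age, sex and the number of mice pooled per array are not given either, so each p-value below measures only the spread between arrays, which may be technical. The other 12 arrays hold wild-type CD80lo mTEC, unfractionated mTEC, cortical epithelium (cTEC) and thymic macrophages (tMPh), and CD80hi and CD80lo mTEC of Aire knockout mice, with 2 arrays each. They entered the fit to estimate the spread, and unfractionated mTEC also served as a second epithelial group beside tDC.

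MHC class II molecules carry peptides cut by proteases in endosomes, and CD4 T cells read them. The invariant chain escorts a new class II molecule to the endosome, H2-M exchanges the invariant chain fragment for other peptides, and H2-O modulates H2-M. Medullary epithelial cells make their own peptides by expressing genes of many other tissues, partly under the regulator Aire, whereas dendritic cells are haematopoietic and take up material from outside as well. Both delete self-reactive thymocytes and favour regulatory T cells.

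RNA was hybridised to an Affymetrix mouse array, and each value is the deposited signal of a probe set, the group of short oligonucleotides that reads 1 transcript. The trimmed mean signal was 100.1 on each of these arrays, so levels are relative to the array. Levels are compared only within a probe set, never between genes. The highest signal on an array was 8786.2 and 9244.8 for CD80hi mTEC, against 3523.8 and 4788.0 for tDC. It was 8597.9 to 13671.3 on all 8 arrays of CD80-sorted cells, and 2518.0 to 5630.0 on the other 8 arrays. The groups compared lie in different array sets, so set and group cannot be told apart in this contrast. Values of unfractionated mTEC minus tDC, which lie in the same set, stand beside the main values where they end a call. That second contrast shares the tDC arrays. A further contrast, called array-set adjusted, adds 0.5 times the CD80hi minus CD80lo difference of the other set to it. That weight takes unfractionated mTEC to lie midway between CD80hi and CD80lo mTEC on the log2 scale, which was not tested. The ratio of the 3' to the 5' Gapdh control was 8.09 and 11.1 in CD80hi mTEC, and 3.88 and 17.5 in tDC. The correlation between the log2 values of the 2 arrays was 0.966 for CD80hi mTEC and 0.929 for tDC.

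The labels were checked on marker genes first. Cd80 gave 61.3 and 87.5 in CD80hi mTEC, against 32.9 and 35.5 in tDC. The groups did not overlap, but the difference of 1.0 on the log2 scale (SE 0.37) did not pass the threshold (limma, adjusted p = 0.0590). Within the CD80-sorted set, Cd80 was higher in CD80hi than in CD80lo mTEC, which gave 13.7 and 6.6 (log2 difference 2.43, adjusted p = 0.000558). Aire, the regulator of tissue genes in mature mTEC, gave 1828.6 and 1704.5 in CD80hi mTEC, against 65.2 and 36.1 in tDC. Its log2 difference was 5.05 (SE 0.51, adjusted p = 6.20e-06), and both epithelial arrays lay far above both dendritic ones. The probe set still read 1589.1 and 1385.3 in CD80hi mTEC of the knockout, so it does not check the deletion. The dendritic integrin Itgax (CD11c) gave 46.0 and 61.8 in CD80hi mTEC, against 1187.8 and 1296.0 in tDC. Krt8, a keratin of simple epithelia, gave 2522.1 and 1977.1 in CD80hi mTEC, against 59.8 and 22 in tDC. Both label checks thus ran the way the names say. Ctss, the cathepsin that dendritic cells and mTEC use to trim the invariant chain, was bright in both, at 2079.8 and 2604.7 in CD80hi mTEC and 3065.7 and 3904.9 in tDC.

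Of 6922 genes tested, 1350 (19.5%) were higher in CD80hi mTEC and 726 (10.5%) were lower, at an adjusted p under 0.05 with the brightest probe set standing for each gene. Every count of list members below is to be read beside these shares. Over all 9319 probe sets tested these were 1706 (18.3%) and 881 (9.45%), so 65.9% of calls were on the higher side. After quantile normalisation the counts were 1319 higher and 1142 lower, with 53.6% of calls higher, and the median over all probe sets moved to -0.15 on the log2 scale from 0.14. Small differences are therefore read against that shift. In unfractionated mTEC minus tDC, 1247 genes (18.0%) were higher and 581 (8.39%) lower. Without CD80hi mTEC array 1 the calls fell to 1137 higher and 422 lower probe sets. Lower calls were 505 without CD80hi mTEC array 2 and 498 without tDC array 1.

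Among the 12 largest positive differences were an antibacterial lectin, an acute-phase protein, a milk protein and a transcription factor of the medulla. Reg3g, the lectin of the gut, gave 3185.7 and 2847.2 in CD80hi mTEC, against 3.7 and 4.3 in tDC (log2 difference 8.42, SE 0.69, adjusted p = 1.14e-06). Saa3, an acute-phase serum amyloid, gave 2797.9 and 2078.6 in CD80hi mTEC, against 1.5 and 6.4 in tDC (log2 8.17). Csn2, the milk protein beta-casein, gave 2462.4 and 3088.9 in CD80hi mTEC, against 11.7 and 10.3 in tDC (log2 7.45). These genes were near the floor of the tDC arrays, and their differences on the log2(signal + 4.8) scale are limited by the added constant. Fezf2, a transcription factor that drives tissue genes in mTEC, gave 2470.1 and 2156.8 in CD80hi mTEC, against 10.2 and 10.6 in tDC (log2 7.25). The other 8 were Fabp9, Fcgbp, Cadps, Krt17, Ubd, Ces1d, Serpinb2 and Hdc, with log2 differences of 6.49 to 7.60. Krt17 had another probe set with no call, at a log2 difference of -0.33 (adjusted p = 0.677).

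The 12 largest negative differences reached -5.39 on the log2 scale. Plbd1, a phospholipase B-like lysosomal protein, gave 89.2 and 60.3 in CD80hi mTEC, against 2779.8 and 3881.3 in tDC (log2 -5.39, SE 0.41, adjusted p = 7.08e-07). Itgb2, the integrin chain shared by leukocytes, gave 14.6 and 31.2 in CD80hi mTEC, against 739.8 and 583.4 in tDC (log2 -4.65). Il1b, the inflammatory cytokine, gave 26.6 and 41.4 in CD80hi mTEC, against 1822.8 and 678.7 in tDC (log2 -4.88). These genes were chosen for large differences on the same 4 arrays, so the gap between the groups follows from the choice. Il1b differed widely between the tDC arrays. The rest were Evi2a, Cd8a, Itgae, Entpd1, Mpeg1, Tyrobp, Itgax, Fcgr2b and Hcls1, with log2 differences of -4.99 to -4.32.

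**Figure D1:**
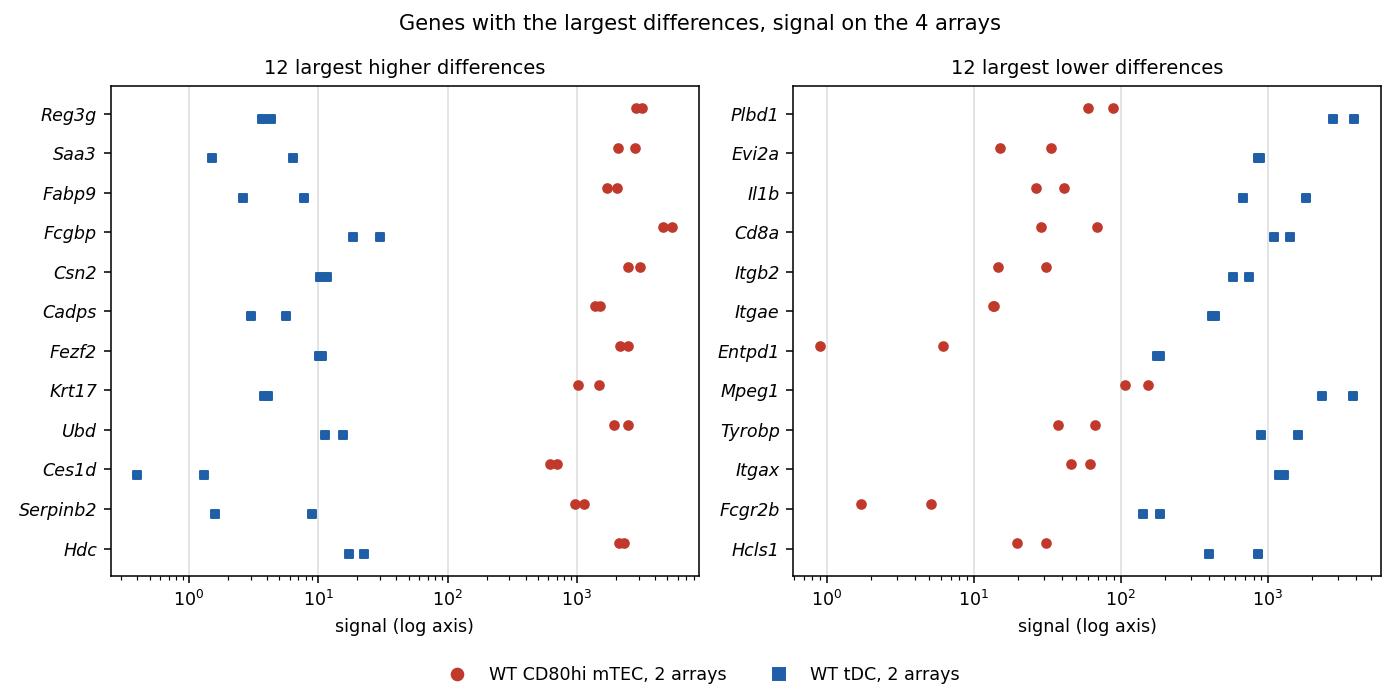
Signal (log axis) of the 12 genes with the largest positive and the 12 with the largest negative log2 difference, WT CD80hi mTEC minus WT tDC; circles are the CD80hi mTEC arrays and squares the tDC arrays. The genes were chosen for these differences, so the points of the 2 groups lie apart by that choice. The differences run from 8.42 for Reg3g to -5.39 for Plbd1 on the log2 scale.

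Of the 12 measured genes of the MHC class II pathway, 11 gave signals above 17.3, the filter level, on all 4 arrays of both cell types. Of these 12 genes, 3 were higher in CD80hi mTEC, 1 was lower and 8 did not pass the threshold, where 19.5% and 10.5% of all genes were called, with a median log2 difference of 0.53 against 0.13 over all genes. In unfractionated mTEC minus tDC, none was higher and 1 was lower, with a median of -0.18. For 7 genes both CD80hi mTEC arrays lay above both tDC arrays, for 4 both lay below, and 1 overlapped. Over all genes tested these shares were 37.7% and 27.9%. H2-Ea, the alpha chain of I-E, did not pass the filter on low signals, with 9.7 and 1.6 in CD80hi mTEC and 5.0 and 5.4 in tDC.

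Class II promoters carry a conserved Y box, an inverted CCAAT element bound by NF-Y beside the RFX and CIITA complex. The letters CTGATTGG were searched on both strands in the 250 bases before each gene start in RefSeq (GRCm38.p6). They occurred in 4 of the 9 class II pathway genes with a promoter entry, in none of 13 genes of endosomal proteases and inhibitors, and in 3.83% of 32851 promoters of that length. A match describes letters and is not evidence of binding. The 150 bases before the start, on the gene's strand and with the matching letters in capitals, are shown for the 4 genes with a match, whatever their call. A link between the letters and the differences was not tested.
H2-Aa (chr17:34287824-34287973, minus strand): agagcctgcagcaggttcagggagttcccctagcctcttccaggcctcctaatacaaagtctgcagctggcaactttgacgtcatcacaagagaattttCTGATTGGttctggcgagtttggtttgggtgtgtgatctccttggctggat
H2-Eb1 (chr17:34305717-34305866, plus strand): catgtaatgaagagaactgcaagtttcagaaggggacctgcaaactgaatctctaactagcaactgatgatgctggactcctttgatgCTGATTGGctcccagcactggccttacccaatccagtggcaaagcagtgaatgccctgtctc
H2-Eb2 (chr17:34325525-34325674, plus strand): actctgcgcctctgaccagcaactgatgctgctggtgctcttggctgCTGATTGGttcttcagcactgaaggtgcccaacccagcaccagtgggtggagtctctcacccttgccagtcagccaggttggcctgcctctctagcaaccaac
H2-Oa (chr17:34092229-34092378, plus strand): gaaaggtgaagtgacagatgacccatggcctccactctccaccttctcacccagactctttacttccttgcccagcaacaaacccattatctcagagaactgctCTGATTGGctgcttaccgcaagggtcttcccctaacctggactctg

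Of the class II chains, H2-Aa, the alpha chain of I-A, gave 7977.0 and 7866.3 in CD80hi mTEC, against 165.9 and 3638.8 in tDC. The CD80hi mTEC arrays agreed and the tDC arrays did not, so the call (log2 3.33, SE 1.0, adjusted p = 0.0223) turned on tDC array 1. Without that array the difference was 1.12 (adjusted p = 0.309), and it was 3.32 and 3.34 without either CD80hi mTEC array (adjusted p = 0.0996 and 0.0918). The CD80hi mTEC signals also exceeded the highest signal of any tDC array, 4788.0. With signals capped at 2518.0, the lowest array maximum, the difference was 1.94 (adjusted p = 0.0894), and in unfractionated mTEC, at 1121.5 and 5358.0, it was 1.64 (adjusted p = 0.281). The array-set adjusted difference was 1.93 (adjusted p = 0.249). H2-Ab1, the beta chain of I-A, gave 4277.3 and 3899.1 in CD80hi mTEC, against 3056.2 and 3147.1 in tDC. The groups lay next to each other, and the interval of the log2 difference ran from -0.43 to 1.23. H2-Eb1, the I-E beta chain, gave 5754.6 and 5244.4 in CD80hi mTEC, against 1234.9 and 4156.8 in tDC (log2 1.28, interval 0.22 to 2.33, adjusted p = 0.0698). As for H2-Aa, the tDC arrays decided the value, which was 0.40 without tDC array 1 (adjusted p = 0.629) and 2.15 without tDC array 2 (adjusted p = 0.00438). H2-Eb2, a further E-type beta chain, was dim, with 33.3 and 47.2 in CD80hi mTEC, against 13.8 and 9.4 in tDC (log2 1.45, adjusted p = 0.0319). Leaving out any 1 of the 4 arrays ended that call (log2 1.23 to 1.68, adjusted p 0.0679 to 0.185), and so did quantile normalisation (log2 0.93, adjusted p = 0.209) and the same-set contrast (log2 1.24, adjusted p = 0.0704).

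The invariant chain and the peptide exchange genes split. Cd74, the invariant chain, gave 5737.9 and 4556.6 in CD80hi mTEC, against 2311.6 and 4531.5 in tDC, with an interval of -0.38 to 1.70. H2-DMa, a subunit of the peptide exchanger, was lower in CD80hi mTEC at 860.1 and 609.7, against 1785.1 and 1725.2 in tDC (log2 -1.27, SE 0.41, adjusted p = 0.0320). It was lower in unfractionated mTEC as well (log2 -1.91, adjusted p = 0.00303), while leaving out any 1 of the 4 arrays ended the main call (log2 -1.52 to -1.02, adjusted p 0.0625 to 0.206), as did quantile normalisation (log2 -1.10, adjusted p = 0.0575). Another H2-DMa probe set was also lower (log2 -1.53, adjusted p = 0.0156). H2-DMb1, the partner of H2-DMa, gave 1320.4 and 1238.9 in CD80hi mTEC and 2250.1 and 1341.6 in tDC, with an interval of -1.39 to 0.50. H2-DMb2, a near-identical partner chain, gave 238.0 and 229.7 in CD80hi mTEC and 152.9 and 58.7 in tDC (log2 1.25, adjusted p = 0.0777). The value was 1.91 without tDC array 1 (adjusted p = 0.0244) and 0.60 without tDC array 2 (adjusted p = 0.469). The partner chains share sequence, so their probe sets may read each other's transcript.

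The modulator chains pointed in different directions. H2-Oa gave 1529.8 and 1054.7 in CD80hi mTEC, against 551.2 and 315.0 in tDC (log2 1.60, SE 0.56, adjusted p = 0.0454). The groups did not overlap, but the call was lost without any 1 of the 4 arrays (log2 1.20 to 2.0, adjusted p 0.0543 to 0.240) and in unfractionated mTEC (log2 1.19, adjusted p = 0.149). H2-Ob, the other chain of H2-O, gave 101.1 and 94.1 in CD80hi mTEC, against 224.5 and 181.6 in tDC, with an interval of -2.09 to 0.06. Ciita, the transactivator of class II genes, gave 95.9 and 85.7 in CD80hi mTEC and 220.9 and 126.7 in tDC, with an interval of -1.94 to 0.24. Rfxank, a subunit of the RFX complex, overlapped at 67.3 and 40.3 in CD80hi mTEC and 96.3 and 57.9 in tDC. Against thymic macrophages in the same array set, tDC were higher in 6 of the 12 class II genes and lower in none, and over all genes 280 (4.05%) were higher and 440 (6.36%) lower. H2-Ab1, at 759.0 and 272.2 in macrophages, was one of the 6.

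**Figure D2:**
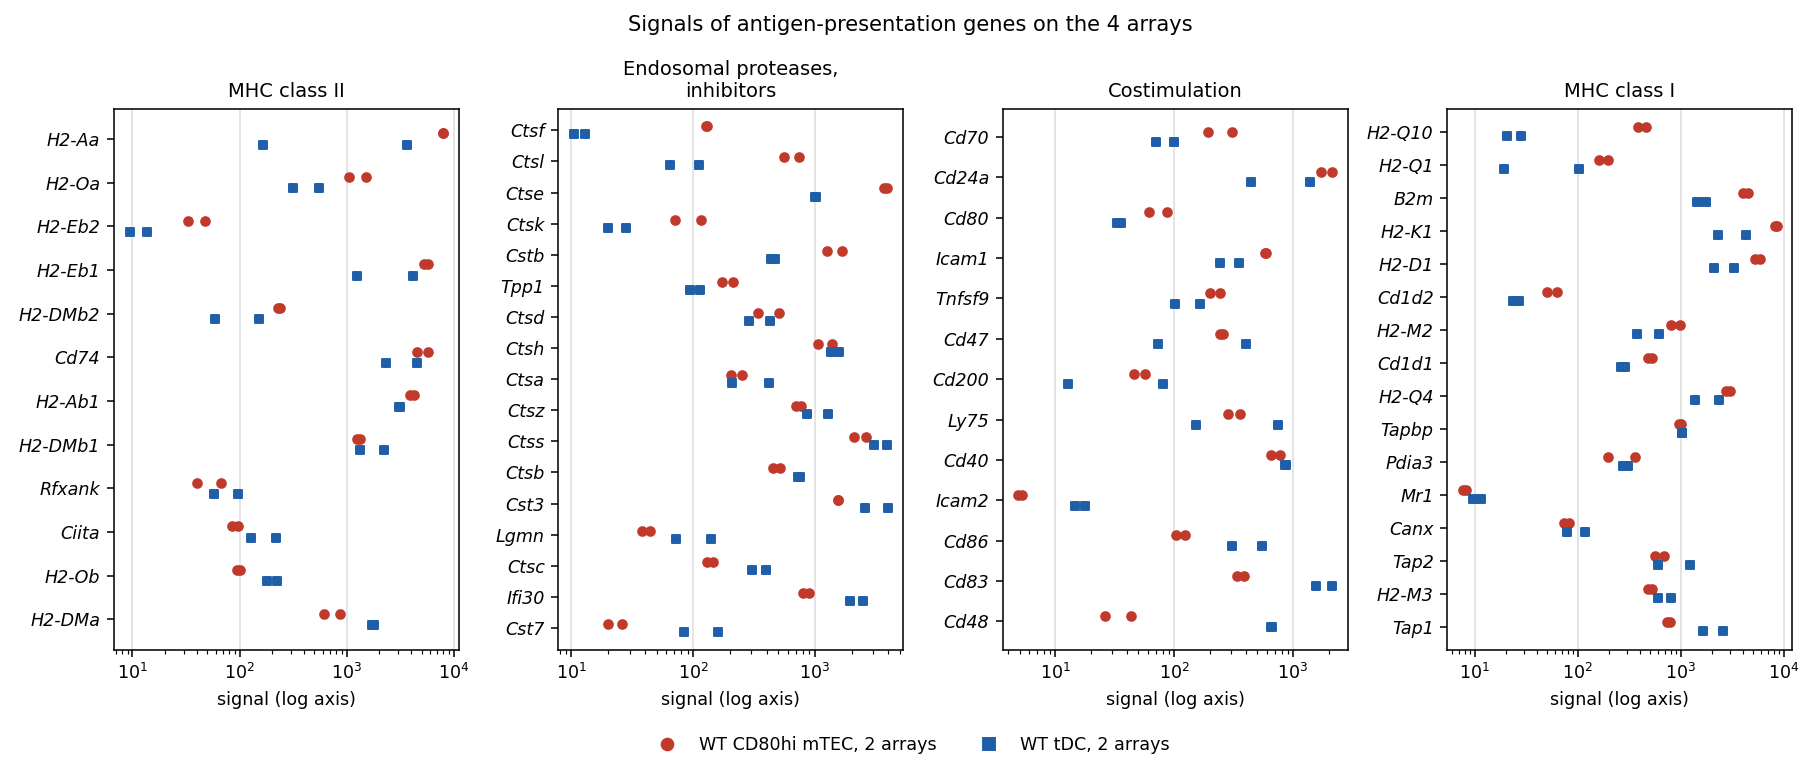
Signal (log axis) of every measured gene of 4 antigen-presentation lists, ordered by log2 difference; circles are the 2 WT CD80hi mTEC arrays and squares the 2 WT tDC arrays. H2-Aa stands out for its low point on tDC array 1 (165.9), and Cd48, at 26.1 and 43.1 in CD80hi mTEC and 649.1 and 668.2 in tDC, is the furthest apart of the costimulatory list.

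Endosomal proteases and their inhibitors differed in both directions. Of 17 measured genes, 5 were higher in CD80hi mTEC, 5 were lower and 7 did not pass, with a median log2 difference of -0.39. Over all genes 19.5% were higher and 10.5% lower. In unfractionated mTEC minus tDC the counts were 4 higher and 5 lower. Ctsl, the cathepsin known for class II processing in cortical epithelium, gave 555.4 and 733.3 in CD80hi mTEC, against 111.6 and 64.7 in tDC. Both epithelial arrays lay above both dendritic ones (log2 2.84, SE 0.49, adjusted p = 0.000570), and CD80lo mTEC were brighter still at 3006.1 and 4049.2. Ctsf, cathepsin F, gave 127.5 and 130.8 in CD80hi mTEC, against 10.5 and 12.9 in tDC (log2 3.02, SE 0.38, adjusted p = 4.20e-05). Ctsk, the cysteine protease of bone resorption, gave 71.2 and 115.4 in CD80hi mTEC, against 19.9 and 28.3 in tDC (log2 1.74, adjusted p = 0.00261). Ctse, an aspartic protease, gave 3935.6 and 3657.8 in CD80hi mTEC, against 1009.1 and 1026.0 in tDC (log2 1.89, adjusted p = 0.00800). The CD80hi values of Ctse lay above the top of tDC array 1, and the call was lost with capped signals (log2 1.30, adjusted p = 0.0511), without CD80hi mTEC array 1 (log2 1.84, adjusted p = 0.0565) and in unfractionated mTEC (log2 1.16, adjusted p = 0.0970). Another Ctse probe set was also called higher (log2 2.03, adjusted p = 0.000338), while a dim probe set of the gene had no call (log2 1.43, adjusted p = 0.0846). Cstb, the intracellular inhibitor cystatin B, was higher at 1668.1 and 1252.1 in CD80hi mTEC, against 469.9 and 431.5 in tDC (log2 1.67, adjusted p = 0.00219).

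The 5 lower genes of the list were 3 enzymes and 2 inhibitors. Cst7, cystatin F, an inhibitor of haematopoietic cells, gave 26.1 and 19.9 in CD80hi mTEC, against 160.5 and 84.4 in tDC (log2 -2.14, SE 0.52, adjusted p = 0.00696). The call was lost without CD80hi mTEC array 2 (log2 -1.97, adjusted p = 0.0580) and without tDC array 1 (log2 -1.69, adjusted p = 0.0818). Ifi30, the thiol reductase that opens disulfide bonds of antigens, gave 793.6 and 900.6 in CD80hi mTEC, against 2461.4 and 1943.6 in tDC (log2 -1.37, adjusted p = 0.0111). It too was lost without CD80hi mTEC array 1 (log2 -1.28, adjusted p = 0.0832) and without tDC array 1 (log2 -1.20, adjusted p = 0.0819), while unfractionated mTEC were lower by the test as well (log2 -1.94, adjusted p = 0.00108). Ctsc, which activates granule proteases, gave 145.7 and 130 in CD80hi mTEC, against 398.7 and 301.7 in tDC (log2 -1.30, adjusted p = 0.0267). Lgmn, the asparaginyl endopeptidase, gave 43.8 and 38.1 in CD80hi mTEC, against 140.3 and 72.7 in tDC (log2 -1.22, adjusted p = 0.0318). Cst3, the secreted inhibitor cystatin C, gave 1538.9 and 1548.7 in CD80hi mTEC, against 2584.8 and 3956.4 in tDC (log2 -1.05, adjusted p = 0.0371). None of these 3 overlapped, and each lost its call in 3 of the 4 fits with an array left out. There the differences ran from -1.38 to -1.11 for Ctsc, from -1.31 to -0.76 for Lgmn and from -1.05 to -0.74 for Cst3, and the highest adjusted p was 0.155, 0.280 and 0.221. The call of Ctsc was also lost with the mean over its probe sets (log2 -0.91, adjusted p = 0.212). In the array-set adjusted contrast Ctsc and Cst3 missed the threshold (log2 -1.10 and -1.08, adjusted p = 0.0937 and 0.0581), and Cst3 did with capped signals (log2 -0.70, adjusted p = 0.106). A dimmer Cst3 probe set was also lower, at 103.7 and 109.3 in CD80hi mTEC, against 1113.5 and 1390.9 in tDC (log2 -3.49, adjusted p = 8.56e-06).

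The remaining proteases did not pass on their brightest probe sets, which does not show them alike. The log2 difference of Ctss was -0.57 with an interval of -1.43 to 0.29, and both tDC arrays lay above both CD80hi mTEC arrays. Ctsh, an aminopeptidase, gave 1060.5 and 1385.4 in CD80hi mTEC and 1348.5 and 1569.8 in tDC, with an interval of -1.19 to 0.67. Within the CD80-sorted set, Ctss and Ctsh were higher in CD80hi than in CD80lo mTEC, by log2 1.65 (adjusted p = 0.0134) and 2.83 (adjusted p = 0.000557). CD80lo mTEC gave 838.1 and 651.3 for Ctss and 190.3 and 144.6 for Ctsh. Ctsd, the main aspartic protease of lysosomes, gave 507.1 and 343.5 in CD80hi mTEC and 430.8 and 284.9 in tDC, and Ctsz gave 695.8 and 763.9 in CD80hi mTEC and 1267.6 and 861.2 in tDC. Ctsa, at 250.3 and 203.1 in CD80hi mTEC and 420.6 and 208.8 in tDC, and Tpp1, at 212.0 and 172.1 in CD80hi mTEC and 93.4 and 113.6 in tDC, also missed the threshold. Ctsb, a broad cysteine protease, did not pass on its brightest probe set, at 513.0 and 456.0 in CD80hi mTEC and 751.8 and 730.1 in tDC. A pair of other Ctsb probe sets were lower in CD80hi mTEC (log2 -1.65 and -1.42, adjusted p = 0.0154 and 0.00239).

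Of 17 genes of a list of lysosomal and endosomal components, 2 were higher and 5 lower, where 19.5% and 10.5% of all genes were called. Several of those called are soluble proteins of the lumen. Man2b1, a lysosomal mannosidase, gave 172.7 and 167.5 in CD80hi mTEC, against 1838.9 and 1201.4 in tDC (log2 -3.09, adjusted p = 2.75e-05), though its other probe set showed no call (log2 -0.34). Gusb, beta-glucuronidase, gave 215.9 and 268.9 in CD80hi mTEC, against 1442.6 and 1019.9 in tDC (log2 -2.31, adjusted p = 0.000111). Cd164, a sialomucin of endosomes and the cell surface, was higher at 1139.7 and 1511.9 in CD80hi mTEC, against 124.4 and 328.9 in tDC (log2 2.67, adjusted p = 0.00465; 1.98 and 0.0651 without tDC array 1). Npc2, a cholesterol carrier, was 3904.2 and 3511.7 in CD80hi mTEC, against 1979.0 and 1802.8 in tDC (log2 0.97, adjusted p = 0.0205). That call was lost without any 1 of the 4 arrays (log2 0.89 to 1.05, adjusted p 0.0633 to 0.128), and the difference was 0.41 with capped signals and 0.15 in unfractionated mTEC.

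Of 13 measured costimulatory and coinhibitory genes, 1 was higher, 3 were lower and 9 did not pass. Over all genes 19.5% were higher and 10.5% lower. Cd86, which with Cd80 engages CD28, gave 103.2 and 122.5 in CD80hi mTEC, against 308.6 and 547.3 in tDC (log2 -1.83, SE 0.48, adjusted p = 0.0106). The call was lost without CD80hi mTEC array 1 (log2 -1.71, adjusted p = 0.0793) and without tDC array 2 (log2 -1.42, adjusted p = 0.0898). Cd80 and Cd86 thus lay on opposite sides, with both CD80hi mTEC arrays above both tDC arrays for Cd80 and below them for Cd86. CD80 was the sort marker of these epithelial cells, so the side of Cd80 is not independent of the sort. Its difference also missed the threshold (adjusted p = 0.0590). In unfractionated mTEC, Cd80 gave 40.3 and 30.4, with a log2 difference from tDC of 0.03 (interval -0.76 to 0.83), and Cd86 gave 57.4 and 50.3 (log2 -2.83, adjusted p = 0.000511). A dimmer Cd86 probe set was also lower in CD80hi mTEC than in tDC (log2 -2.06, adjusted p = 0.0118).

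Cd83, a surface protein that stabilises class II, gave 335.1 and 387.4 in CD80hi mTEC, against 2136.8 and 1575.1 in tDC (log2 -2.33, adjusted p = 0.000195), while a dimmer probe set of the gene had no call (log2 -1.21, adjusted p = 0.173). In cTEC, Cd83 gave 1510.4 and 1595.7. Cd48, a ligand of leukocytes, gave 26.1 and 43.1 in CD80hi mTEC, against 649.1 and 668.2 in tDC (log2 -4.11, adjusted p = 1.77e-05). Cd70, the ligand of CD27, was the gene called higher, at 308.1 and 191.2 in CD80hi mTEC, against 99 and 69.8 in tDC (log2 1.49, SE 0.42, adjusted p = 0.0161). It lost the call without CD80hi mTEC array 1 (log2 1.16, adjusted p = 0.160) and without tDC array 2 (log2 1.25, adjusted p = 0.0971), but was also higher in unfractionated mTEC (log2 1.38, adjusted p = 0.0260). Cd40, the receptor through which T cells license both cell types, was close at 653.3 and 772.3 in CD80hi mTEC and 852.9 and 874.2 in tDC. Its interval of -0.94 to 0.38 lay within -1 and 1, the rule used here for a shared level. The rule was not met in the same-set contrast (interval -1.11 to 0.20) or in the array-set adjusted one (interval -0.26 to 1.20).

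Icam1, an adhesion ligand of LFA-1, gave 585.4 and 588.2 in CD80hi mTEC and 348.1 and 242.9 in tDC (log2 1.0, adjusted p = 0.0663). Tnfsf9, the ligand of 4-1BB, gave 199.3 and 241.9 in CD80hi mTEC and 165.0 and 102.5 in tDC. Cd24a, Cd47, Cd200, Ly75 and Icam2 did not pass, with log2 differences of -1.09 to 1.28. For Cd24a, Cd47, Cd200 and Ly75 the tDC arrays themselves lay far apart. Ly75, an endocytic receptor also called DEC-205, gave 284.0 and 361.4 in CD80hi mTEC and 153.9 and 753.9 in tDC. Tnfsf4 did not pass the filter on low signals, with 2.9 and 14.7 in CD80hi mTEC and 12.7 and 7.6 in tDC.

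**Figure D3:**
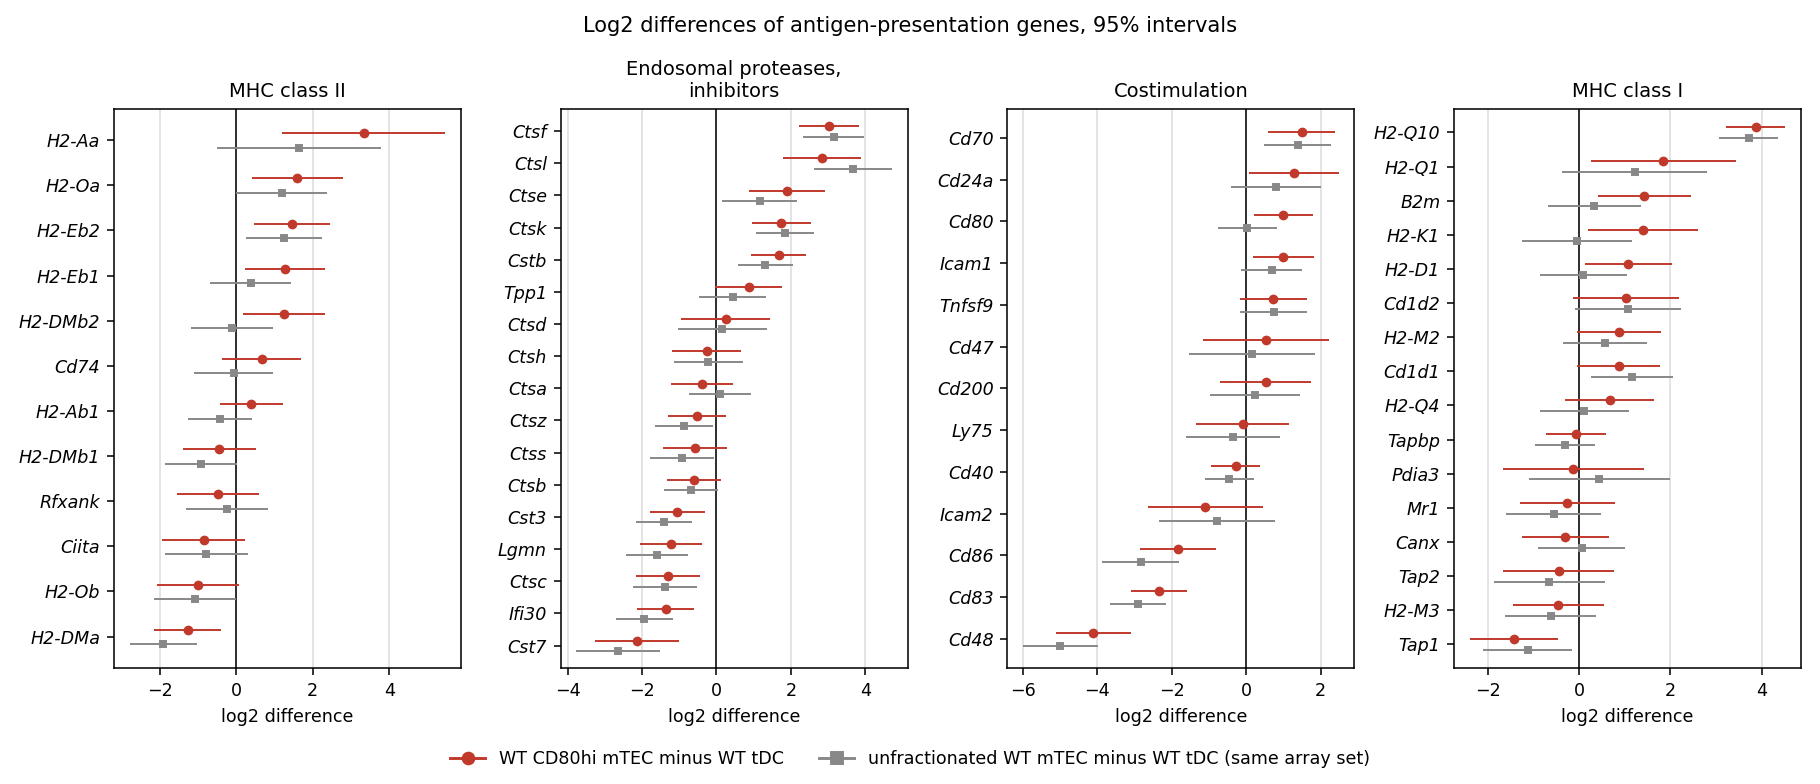
Log2 difference with its 95% interval for each measured gene of 4 antigen-presentation lists; circles are WT CD80hi mTEC minus WT tDC, and squares are unfractionated WT mTEC minus WT tDC, which share an array set and the tDC arrays. B2m (1.43 and 0.33) and H2-Aa (3.33 and 1.64) lie nearer 0 in the same-set contrast, while H2-DMa (-1.27 and -1.91), Ctsl (2.84 and 3.67) and Cd48 (-4.11 and -4.98) lie further from it.

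Of 16 measured genes of MHC class I and its loading, 2 were higher, 1 was lower and 13 did not pass. Over all genes 19.5% were higher and 10.5% lower. B2m, the light chain of class I, gave 4034.5 and 4438.7 in CD80hi mTEC, against 1415.9 and 1732.4 in tDC (log2 1.43, SE 0.48, adjusted p = 0.0371). In unfractionated mTEC it gave 1734.8 and 2240.7, and the difference from tDC was 0.33 (adjusted p = 0.700). With capped signals it was 0.68 (adjusted p = 0.257), and leaving out any 1 of the 4 arrays ended the call (log2 1.29 to 1.58, adjusted p 0.0724 to 0.167). The heavy chain H2-K1 gave 8088.1 and 8477.7 in CD80hi mTEC and 2263.0 and 4307.5 in tDC (log2 1.41, adjusted p = 0.0788). In the same array set its difference was -0.04. H2-D1 gave 5225.4 and 5846.9 in CD80hi mTEC and 2089.4 and 3246.5 in tDC (log2 1.08), with 0.09 in the same set. H2-K1 and H2-D1 share sequence with other class I genes, and their probe sets carry the suffix for shared sequence. H2-Q10, which encodes a secreted class I molecule of the liver, gave 456.8 and 384.3 in CD80hi mTEC, against 28.1 and 20.7 in tDC (log2 3.87, SE 0.30, adjusted p = 8.24e-07). Unfractionated mTEC were also higher, by 3.72, and the suffix applies here too.

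Peptide supply for class I ran the other way in single genes. Tap1, a subunit of the peptide transporter, gave 725.2 and 782.9 in CD80hi mTEC, against 2546.5 and 1619.5 in tDC (log2 -1.42, SE 0.45, adjusted p = 0.0301). The call was lost without CD80hi mTEC array 1 (log2 -1.37, adjusted p = 0.136), CD80hi mTEC array 2 (log2 -1.48, adjusted p = 0.102) and tDC array 1 (log2 -1.10, adjusted p = 0.203), in the same-set contrast (log2 -1.12, adjusted p = 0.0915) and in the array-set adjusted one (log2 -1.36, adjusted p = 0.0658). Its partner Tap2 overlapped, at 565.1 and 691.6 in CD80hi mTEC and 1224.4 and 595.3 in tDC. Tapbp, which tethers class I to the transporter, met the rule for a shared level at 997.7 and 954.7 in CD80hi mTEC and 1014.4 and 1024.5 in tDC (log2 -0.06, interval -0.72 to 0.60). Of the other members, H2-Q1, H2-Q4, H2-M2, H2-M3, Cd1d1, Cd1d2, Mr1, Canx and Pdia3 did not pass, with log2 differences of -0.45 to 1.85. H2-T24 and Calr did not pass the filter on low signals.

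Of 21 proteasome genes, 0 were higher and 3 were lower by limma, and at an unadjusted p under 0.05 1 were higher and 6 lower. Over all genes 19.5% were higher and 10.5% lower by limma. Psmb9, the interferon-induced catalytic subunit of the immunoproteasome, gave 568.7 and 566.5 in CD80hi mTEC, against 2100.7 and 1991.4 in tDC. The arrays of each group agreed closely (log2 -1.84, SE 0.34, adjusted p = 0.00102), and the call held in all 4 fits with an array left out and in unfractionated mTEC (log2 -1.74, adjusted p = 0.00168). Psmb5, the constitutive catalytic subunit, gave 162.6 and 160.2 in CD80hi mTEC, against 575.2 and 354.5 in tDC (log2 -1.46, adjusted p = 0.00685). Another Psmb5 probe set pointed the other way without a call (log2 0.54), and the call was lost without tDC array 1 (log2 -1.11, adjusted p = 0.0824) and in unfractionated mTEC (log2 -0.80, adjusted p = 0.128). Psma5 gave 369.3 and 407.7 in CD80hi mTEC, against 1031.9 and 695.4 in tDC (log2 -1.12, adjusted p = 0.0287), lost without any array but tDC array 2 (log2 -1.19 to -0.83 there, adjusted p 0.0925 to 0.210).

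Shared levels were read from intervals, since a p that misses the threshold does not show that values are alike. A gene was called shared where the 95% interval of its log2 difference lay within -1 and 1 and its signal exceeded 17.3 on all 4 arrays. This held for 750 genes (10.8%), and within -2 and 2 for 3459 genes (50%). None of the 12 class II genes and none of the 17 protease genes met the narrower rule, while 1 of 13 costimulatory, 1 of 16 class I, 1 of 17 lysosomal, 4 of 21 proteasome and 5 of 15 autophagy genes did. The wider rule held for 18 of 21 proteasome and 12 of 15 autophagy genes, and for 5 of 12 class II and 8 of 17 protease genes.

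Besides Cd40 and Tapbp, described above, the shared members came from the lysosome, autophagy and proteasome lists. Lamp1, the main glycoprotein of the lysosome membrane, gave 2380.6 and 2357.7 in CD80hi mTEC and 2405.4 and 2588.1 in tDC (log2 -0.07, interval -0.88 to 0.73). Sqstm1, the autophagy receptor p62, gave 800.2 and 746.4 in CD80hi mTEC and 849.8 and 674.3 in tDC (log2 0.03, interval -0.57 to 0.63). Gabarapl2, a conjugated autophagosome protein, gave 465.9 and 560.1 in CD80hi mTEC and 434.8 and 543.0 in tDC (log2 0.07, interval -0.56 to 0.70). Pik3c3, the autophagy lipid kinase, and the proteasome subunits Psma7, Psma3 and Psma2 differed by -0.19 to 0.12. In the same-set contrast these genes missed the rule, with intervals of -0.54 to 1.09, -1.33 to 0.35, -1.04 to 0.61 and -1.53 to -0.06. Tapbp, Lamp1, Sqstm1 and Gabarapl2 stayed within -1 and 1 there. In the array-set adjusted contrast Pik3c3, Psma7, Psma3 and Psma2 missed the rule again, and so did Lamp1 (interval -0.75 to 1.05). Autophagy matters in mTEC as a route that brings cytosolic protein to class II. In that list 2 of 15 genes were higher in CD80hi mTEC, no larger a part than the 19.5% over all genes. Map1lc3a, an LC3 form, gave 72.4 and 88.8 in CD80hi mTEC, against 34.9 and 9.0 in tDC (log2 1.86, adjusted p = 0.00929; 1.10 and 0.115 without tDC array 2, 1.72 and 0.0705 without CD80hi mTEC array 2). Atg12, a conjugating factor, gave 405.3 and 498.5 in CD80hi mTEC, against 100.2 and 240.6 in tDC (log2 1.5, adjusted p = 0.0133; 0.89 and 0.181 without tDC array 1, 1.35 and 0.0957 without CD80hi mTEC array 2). In the same-set contrast Atg12 did not pass (log2 0.84, adjusted p = 0.168), nor did it in the array-set adjusted one (log2 1.26, adjusted p = 0.0583).

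Of 24 measured genes of dendritic cell identity, 12 were lower, 2 higher and 10 did not pass, with a median log2 difference of -1.27. In bulk samples, fewer cells of a type and less RNA per cell cannot be told apart. Itgae, the CD103 integrin of cross-presenting dendritic cells, gave 13.8 and 13.5 in CD80hi mTEC, against 440.7 and 417.5 in tDC (log2 -4.56, SE 0.50, adjusted p = 1.24e-05). Flt3, the receptor that sustains dendritic cells, gave 180.6 and 225.4 in CD80hi mTEC, against 1427.2 and 1294.3 in tDC (log2 -2.72), although its other probe set differed by -0.13. Batf3, needed for the cross-presenting subset, gave 214.5 and 242.2 in CD80hi mTEC, against 1485.8 and 994.7 in tDC (log2 -2.39, adjusted p = 0.00212). Xcr1, a chemokine receptor of that subset whose ligand mTEC are known to make, gave 19.0 and 20.6 in CD80hi mTEC, against 134.1 and 141.8 in tDC (log2 -2.54, adjusted p = 0.000461). Of the 12 lower genes, 8 were also higher in tDC than in macrophages, and Sirpa was higher in macrophages. Over all genes 4.05% were higher in tDC than in macrophages. Both contrasts use the same tDC arrays, so genes that read high on them are favoured in both.

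Irf4, a transcription factor of the migratory dendritic subset, was higher in CD80hi mTEC, at 1155.7 and 1226.7, against 622.3 and 390.9 in tDC (log2 1.26, adjusted p = 0.0347). The call was lost without tDC array 2 (log2 0.93, adjusted p = 0.198), CD80hi mTEC array 1 (log2 1.31, adjusted p = 0.121) and CD80hi mTEC array 2 (log2 1.22, adjusted p = 0.142), and in unfractionated mTEC (log2 0.96, adjusted p = 0.116). CD80lo mTEC gave 276.4 and 156.3, below CD80hi mTEC by 2.49 (adjusted p = 0.00101). Some list members, named after their values were seen, had high signals in both cell types. Fscn1, the actin bundler of mature dendritic cells, gave 1709.0 and 1804.5 in CD80hi mTEC and 1383.4 and 1669.6 in tDC. Ccl22, a ligand of CCR4, gave 1651.2 and 1977.2 in CD80hi mTEC and 1093.8 and 3221.9 in tDC, and Relb, the NF-kB subunit needed for the medulla, gave 846.4 and 671.1 in CD80hi mTEC and 1233.2 and 509.1 in tDC.

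Of 27 genes of haematopoietic identity, 16 were lower in CD80hi mTEC and 11 did not pass (median log2 -2.17), and leaving out an array gave 11 to 15. Ptprc, the CD45 phosphatase of all leukocytes, gave 28.4 and 75.4 in CD80hi mTEC, against 213.9 and 950.5 in tDC (log2 -3.15, adjusted p = 0.00920). Evi2a, a leukocyte membrane protein, gave 15.2 and 33.4 in CD80hi mTEC, against 861.1 and 887.7 in tDC (log2 -4.99, adjusted p = 6.83e-06). Hcls1, a leukocyte actin regulator, gave 19.6 and 31.2 in CD80hi mTEC, against 855.7 and 399.6 in tDC (log2 -4.32). The summed signal of the 27 genes was 10063.2 and 10630.7 in CD80hi mTEC, against 21930.9 and 22834.2 in tDC, and 4518.9 and 4709.3 in CD80lo mTEC. Much of the CD80hi sum lay in a few genes, again named after their values were seen. Laptm5, a lysosomal protein of leukocytes, gave 2791.5 and 3363.0 in CD80hi mTEC and 2251.7 and 3234.8 in tDC. Lcp1, L-plastin, gave 1589.1 and 1405.2 in CD80hi mTEC and 1721.6 and 2359.1 in tDC. Cytip gave 1415.7 and 2050.9 in CD80hi mTEC and 2127.9 and 3029.4 in tDC. The part of residual leukocytes in these epithelial signals was not tested.

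Fc, complement and phagocytic receptors were 5 lower and 2 higher of 18, where 10.5% of all genes were lower and 19.5% higher. Fcgr2b, the inhibitory Fc receptor, gave 5.1 and 1.7 in CD80hi mTEC, against 186.2 and 140.7 in tDC (log2 -4.38, adjusted p = 1.28e-05). Tyrobp, the signalling adaptor DAP12, gave 37.4 and 67.2 in CD80hi mTEC, against 1614.6 and 900.6 in tDC (log2 -4.46, adjusted p = 3.49e-05). The mannose receptor Mrc1 was higher in CD80hi mTEC, at 128.2 and 113.0, against 10.1 and 26.9 in tDC (log2 2.53, adjusted p = 0.0171; lost without tDC array 1 at 1.98 and 0.140, without CD80hi mTEC array 1 at 2.44 and 0.0946, and without CD80hi mTEC array 2 at 2.61 and 0.0691). In unfractionated mTEC the difference of Mrc1 was 1.36 (adjusted p = 0.207). Of 22 macrophage genes, 7 were lower and 5 higher. C1qa, a chain of complement C1q, gave 68.9 and 52.9 in CD80hi mTEC, against 525.4 and 300.5 in tDC, and 2143.7 and 2665.8 in macrophages. Gas6, a bridging ligand for dying cells, gave 428.9 and 382.0 in CD80hi mTEC, against 16.7 and 10.8 in tDC (log2 4.48, adjusted p = 0.000109). Among 8 pattern recognition genes, 2 were lower and 1 higher. Ly86, a partner of a Toll-like receptor homologue, gave 46.4 and 70.1 in CD80hi mTEC, against 725.6 and 904.7 in tDC (log2 -3.72, adjusted p = 2.10e-05).

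Chemokines were mostly higher in CD80hi mTEC: 12 of 23 measured were higher, 3 lower and 8 did not pass, with a median log2 difference of 1.40. All 12 were also higher in unfractionated mTEC. Ccl25, which attracts thymocyte progenitors and plasmacytoid dendritic cells through CCR9, gave 1612.7 and 1638.3 in CD80hi mTEC, against 20.4 and 13.9 in tDC (log2 6.23, SE 0.70, adjusted p = 1.65e-05). Ccl2, a monocyte attractant, gave 369.0 and 250.8 in CD80hi mTEC, against 37.5 and 36.7 in tDC (log2 2.88, adjusted p = 1.60e-05). Ccl8 gave 201.8 and 107.4 in CD80hi mTEC, against 4.0 and 4.3 in tDC (log2 4.09). Its signal in tDC lay at the floor on both arrays. Ccl17, the other CCR4 ligand, was lower at 242.6 and 206.6 in CD80hi mTEC, against 991.3 and 869.6 in tDC (log2 -2.03, adjusted p = 0.00791; -1.92 and 0.0595 without CD80hi mTEC array 2). Its array-set adjusted difference was -1.48 (adjusted p = 0.0731). Ccl3 and Ccl4, inflammatory chemokines, were lower too. Ccl4 gave 2.0 and 7.9 in CD80hi mTEC, against 255.4 and 31.2 in tDC (log2 -3.38, adjusted p = 0.00224; -1.95 and 0.0300 without tDC array 1), and Ccl3 gave 33.7 and 27.2 in CD80hi mTEC, against 155.1 and 72.5 in tDC (log2 -1.66, adjusted p = 0.00402; -1.14 and 0.0688 without tDC array 1).

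Chemokine receptors were 2 higher and 3 lower of 17, where 19.5% and 10.5% of all genes were called. Ccr2, the receptor of Ccl2, gave 35.5 and 60.6 in CD80hi mTEC, against 270.1 and 312.4 in tDC (log2 -2.52, adjusted p = 0.000531). Its same-set difference was -1.85 (adjusted p = 0.00539), but the array-set adjusted one was -0.94 (adjusted p = 0.186). Cxcr3 gave 1.8 and 3.8 in CD80hi mTEC, against 108.6 and 98.0 in tDC (log2 -3.84, adjusted p = 0.000728). Its ligand Cxcl10 ran the opposite way, with 411.8 and 285.2 in CD80hi mTEC, against 24.6 and 21.9 in tDC (log2 3.63, adjusted p = 4.49e-05). Cxcr5 and the scavenger Ackr3 were higher in CD80hi mTEC. Cxcr5 gave 43.6 and 40.4 in CD80hi mTEC, against 2.4 and 5.4 in tDC (log2 2.45, adjusted p = 0.00146), and Ackr3 gave 16.5 and 22.9 in CD80hi mTEC, against 0.8 and 0.6 in tDC (log2 2.14, adjusted p = 0.00624; 1.95 and 0.0561 without CD80hi mTEC array 2).

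Interleukin and growth factor genes were 16 higher and 5 lower of 28 (median log2 1.38). Igf2, a fetal growth factor, gave 717.1 and 481.2 in CD80hi mTEC, against 10.6 and 11.1 in tDC (log2 5.24, adjusted p = 1.16e-06). Il13, a type 2 cytokine, gave 281.6 and 195.3 in CD80hi mTEC, against 2.7 and 3.7 in tDC (log2 4.91). Il12a, the p35 chain of IL-12, gave 223.9 and 152.0 in CD80hi mTEC, against 1.1 and 2.1 in tDC (log2 4.89, adjusted p = 3.13e-06). The Il12b chain lay the other way, at 59.5 and 147.6 in CD80hi mTEC, against 371.1 and 431.2 in tDC (log2 -2.03, adjusted p = 0.0399). Il18, an inflammasome cytokine, gave 2.5 and 3.7 in CD80hi mTEC, against 65.0 and 53.5 in tDC (log2 -3.02, adjusted p = 0.000613), and its receptor chain Il18r1 gave 190.8 and 178.2 in CD80hi mTEC, against 6.4 and 13.1 in tDC (log2 3.74, adjusted p = 2.40e-05). Ligand and receptor of the IL-18 pair thus differed in opposite directions. Il16 gave 24.6 and 27.5 in CD80hi mTEC, against 166.2 and 148.7 in tDC (log2 -2.39, adjusted p = 0.000101).

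Of 34 cytokine receptors and kinases, 4 were higher and 12 lower, and 7 were lower in unfractionated mTEC. Over all genes 19.5% were higher and 10.5% lower in the main contrast. Csf2ra, the GM-CSF receptor chain, gave 40.8 and 47.7 in CD80hi mTEC, against 387.4 and 277.5 in tDC (log2 -2.77, adjusted p = 0.000128), while its ligand Csf2 gave 67.5 and 46.4 in CD80hi mTEC, against 0.5 and 2.1 in tDC (log2 3.33, adjusted p = 0.000160). Kit, the stem cell factor receptor, gave 77.3 and 72.7 in CD80hi mTEC, against 255.7 and 338.6 in tDC (log2 -1.91, adjusted p = 0.000919; -0.98 and 0.0578 in unfractionated mTEC, -0.75 and 0.197 array-set adjusted). Il1r1 gave 160.2 and 149.3 in CD80hi mTEC, against 18.3 and 30.4 in tDC (log2 2.48, adjusted p = 0.000113).

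Of 23 genes of NF-kB and the TNF receptors that shape the medulla, 3 were higher and 2 lower, where 19.5% and 10.5% of all genes were called. Tnfrsf11b, the decoy receptor osteoprotegerin, gave 273.6 and 461.6 in CD80hi mTEC, against 11.2 and 16 in tDC (log2 4.30, SE 0.46, adjusted p = 9.38e-06). Tnfrsf1b, a TNF receptor, gave 102.9 and 129.3 in CD80hi mTEC, against 514.4 and 480.5 in tDC (log2 -2.06, adjusted p = 0.00148), and the adaptor Traf5 gave 156.4 and 152.6 in CD80hi mTEC, against 384.9 and 364.9 in tDC (log2 -1.25, adjusted p = 0.00395). Traf6, an adaptor of these receptors, was called higher but lost the call without tDC array 1 (log2 0.65, adjusted p = 0.397), CD80hi mTEC array 1 (log2 1.51, adjusted p = 0.116) and CD80hi mTEC array 2 (log2 1.36, adjusted p = 0.151), and its other probe sets had no call (log2 0.23 and 0.56). Its same-set difference was 1.21 (adjusted p = 0.0834). Nfkbia, an inhibitor and target of NF-kB, gave 1593.5 and 1588.5 in CD80hi mTEC, against 499.6 and 995.5 in tDC (log2 1.17, adjusted p = 0.0351). It was lost without the same 3 arrays, most widely without tDC array 1 (log2 0.67, adjusted p = 0.324), and in the same-set contrast (log2 0.92, adjusted p = 0.104). Another Nfkbia probe set was also called higher (log2 1.14, adjusted p = 0.0483). Of 24 interferon-induced genes, 6 were higher and 3 lower. Ifit1 gave 469.3 and 324.3 in CD80hi mTEC, against 13.7 and 42.1 in tDC (log2 3.75, adjusted p = 9.96e-05), whereas Irf7 gave 79.6 and 64.9 in CD80hi mTEC, against 371.6 and 326.0 in tDC (log2 -2.20, adjusted p = 0.000176). Both counts of the list lay near the shares over all genes, 19.5% and 10.5%, in the main contrast. The counts were 6 higher and 2 lower in the same-set contrast, and 5 higher and 7 lower in the array-set adjusted one.

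Epithelial genes were mostly higher in CD80hi mTEC. The filter favours this, since genes could enter through epithelial arrays alone. Of the junction, keratin and regulator lists, 27, 15 and 21 genes exceeded the filter level on both CD80hi mTEC arrays, against 9, 6 and 8 on both tDC arrays. Of 27 junction genes, 23 were higher in CD80hi mTEC and 1 lower (median log2 3.87), of 16 keratins 14 were higher (median 3.58), and of 24 epithelial and thymic epithelial regulators 17 were higher (median 1.94). Leaving out an array gave 21 to 22, 13 to 14 and 13 to 16. Dsp, the desmosomal protein desmoplakin, gave 1319.0 and 1103.6 in CD80hi mTEC, against 9.5 and 13.6 in tDC (log2 6.22, SE 0.31, adjusted p = 9.54e-08). Gjb2, connexin 26, gave 1116.8 and 1110.4 in CD80hi mTEC, against 20.2 and 23.1 in tDC (log2 5.4). Krt10, a keratin of differentiated epidermis, gave 1623.4 and 1307.9 in CD80hi mTEC, against 9.8 and 14.3 in tDC (log2 6.45), and Krt20, an intestinal keratin, gave 689.1 and 1077.8 in CD80hi mTEC, against 5.8 and 7.9 in tDC (log2 6.22). Erbb3, a growth factor receptor, gave 264.8 and 293.1 in CD80hi mTEC, against 17.8 and 18.2 in tDC (log2 3.64). The summed keratin signal was 8923.4 and 7475.1 in CD80hi mTEC, against 319.2 and 326.6 in tDC. The exception was Cldn1, a tight junction claudin, with 33.0 and 39.3 in CD80hi mTEC, against 75.3 and 214.2 in tDC (log2 -1.70, adjusted p = 0.0107). That call was lost without tDC array 2 (log2 -0.97) and without CD80hi mTEC array 1 (log2 -1.59). Another Cldn1 probe set was also lower (log2 -1.81, adjusted p = 0.00264).

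Lists of genes known from other organs held mostly higher calls. A gene was measured if its probe set passed the filter level on any 2 of the 16 arrays, so members could enter through epithelial arrays alone. In the liver, pancreas, mammary and nerve lists, 25, 29, 21 and 33 genes exceeded that level on both CD80hi mTEC arrays. Only 4, 9, 6 and 11 did on both tDC arrays. The filter thus favours higher calls in these lists. Higher in CD80hi mTEC were 24 of 29 liver and plasma protein genes, 25 of 33 of pancreas and gut, 19 of 21 of mammary gland, salivary gland and skin, and 24 of 39 of nerve, muscle, germ cells and eye, with 1 lower in all. Apoa4, an intestinal apolipoprotein, gave 591.6 and 570.8 in CD80hi mTEC, against 2.6 and 2.5 in tDC (log2 6.32, SE 0.55, adjusted p = 1.94e-06). Vil1, the villin of the brush border, gave 207.9 and 221.6 in CD80hi mTEC, against 0.5 and 1.1 in tDC (log2 5.29). Myh4, a fast muscle myosin, gave 223.9 and 261.2 in CD80hi mTEC, against 0.4 and 2.2 in tDC (log2 5.35), and Sprr1a, a cornified envelope protein, gave 1369.3 and 1508.8 in CD80hi mTEC, against 25.5 and 18.9 in tDC (log2 5.75). In tDC these signals were at the low end of the array. Summed over the 33 pancreas and gut genes, the signal was 8574.8 and 7830.8 in CD80hi mTEC, against 982.1 and 807.5 in tDC, which was no higher than the 1088.1 and 1008.6 of macrophages. Of the genes called higher in these lists, 16, 20, 18 and 18 were also higher in CD80hi than in CD80lo mTEC, where over all genes 597 (8.62%) were higher and 335 (4.84%) lower. Both contrasts use the same CD80hi mTEC arrays, so genes that read high on them are favoured in both. The share of 8.62% is over all genes tested, not over those called higher here, so it is not a matched share. Ckm, muscle creatine kinase, was the 1 lower, at 4.5 and 3.5 in CD80hi mTEC, against 26.1 and 16.6 in tDC, and unfractionated mTEC, at 20.5 and 19.6, had a log2 difference of -0.05. The call of Ckm was lost without CD80hi mTEC array 1 (log2 -1.63, adjusted p = 0.0600), CD80hi mTEC array 2 (log2 -1.47, adjusted p = 0.0848) and tDC array 1 (log2 -1.28, adjusted p = 0.122).

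**Figure D4:**
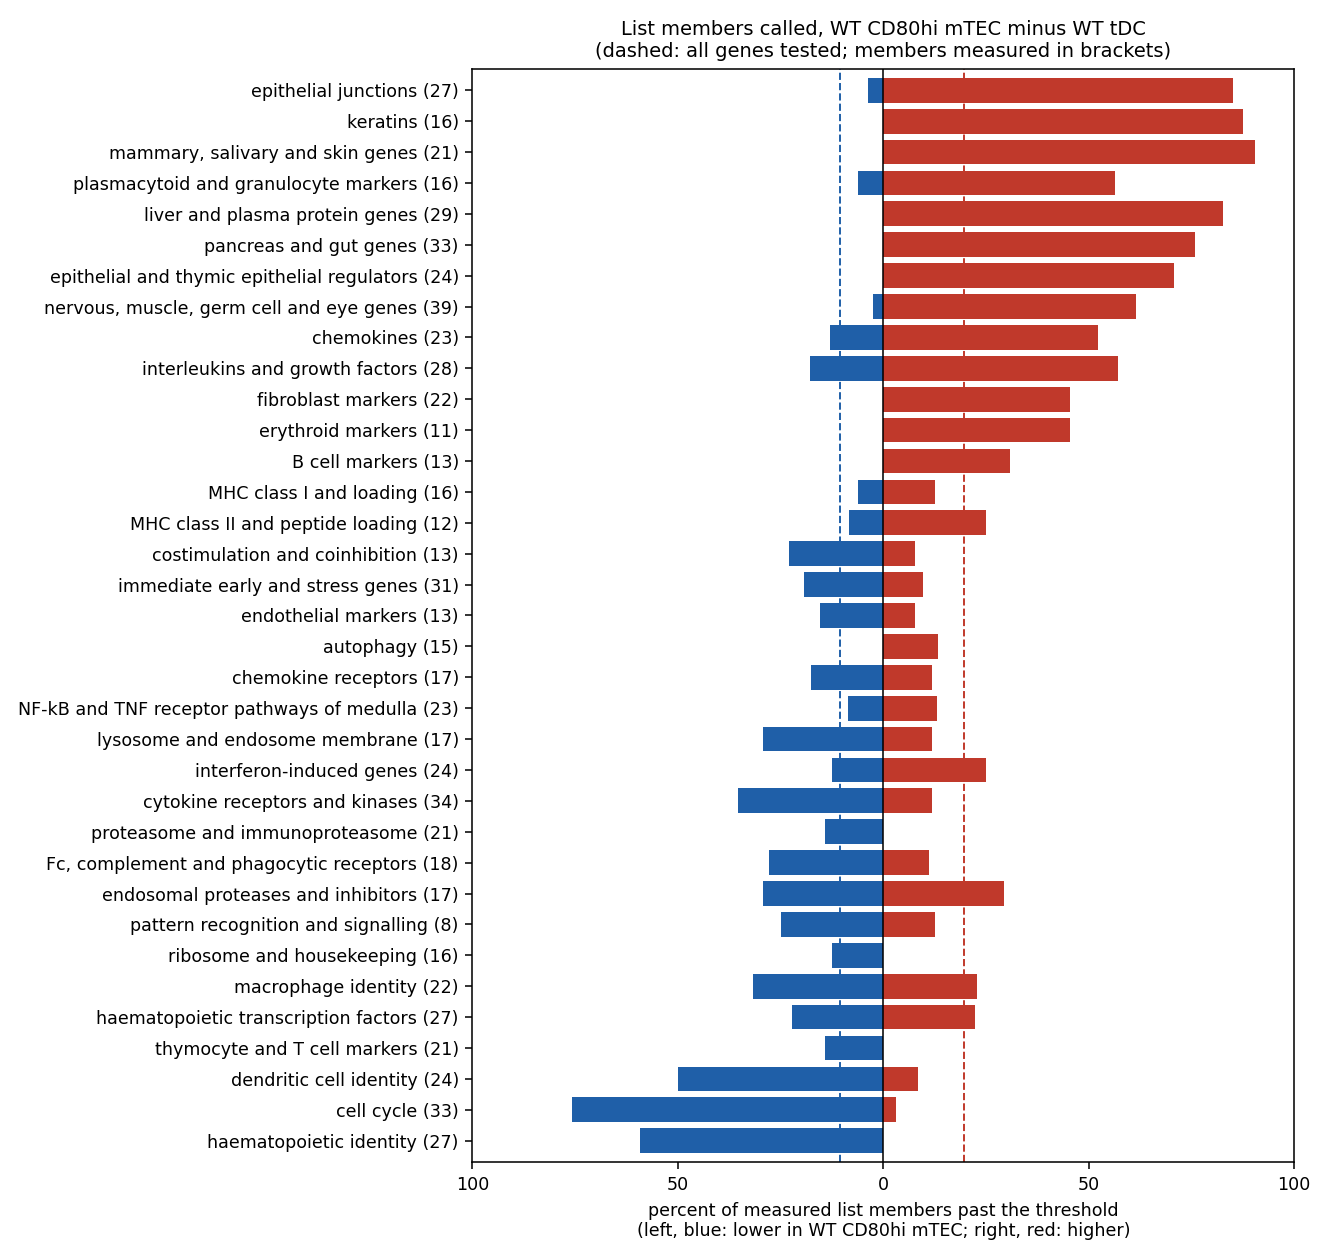
Percent of the measured members of each gene list that passed the threshold in WT CD80hi mTEC minus WT tDC, higher to the right and lower to the left, ordered by median log2 difference; dashed lines give the shares over all genes tested, 19.5% and 10.5%. Keratins (14 of 16 higher) and epithelial junctions (23 of 27 higher) lie at the top, and cell cycle (25 of 33 lower) and haematopoietic identity (16 of 27 lower) at the bottom; the list of 2 sex-linked genes is not drawn.

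Cell cycle genes were lower in CD80hi mTEC. Of 33 measured, 25 were lower, 1 was higher and 7 did not pass (median log2 -2.04), and leaving out an array gave 18 to 23 lower. Unfractionated mTEC were lower in 23. Mcm3, a subunit of the replicative helicase, gave 44.3 and 66.5 in CD80hi mTEC, against 536.4 and 426.4 in tDC (log2 -3.03, SE 0.34, adjusted p = 1.66e-05). Ccnb2, a mitotic cyclin, gave 93.6 and 126.7 in CD80hi mTEC, against 921.8 and 867.7 in tDC (log2 -2.98), and Mki67, the proliferation marker, gave 46.6 and 113.6 in CD80hi mTEC, against 620.2 and 867.4 in tDC (log2 -3.24, adjusted p = 9.23e-05). No CD80hi mTEC array reached a tDC array in 29 of the 33 genes, against 27.9% of all genes. Ccnd2, a cyclin of the first gap phase, was the 1 higher, at 104.2 and 206.2 in CD80hi mTEC, against 36.2 and 32.9 in tDC (log2 1.95, adjusted p = 0.00116). A dim second probe set of Mki67 had no call (log2 0.49, adjusted p = 0.370). Tk1, thymidine kinase, was lower on its brightest probe set (log2 -2.71), and its other probe set had no call (log2 0.49).

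Markers of thymocytes and T cells were summed beside the cell cycle genes. The summed signal of 21 measured thymocyte and T cell markers was 684.1 and 1134.0 in CD80hi mTEC, against 3619.8 and 3555.4 in tDC, and 10884.2 and 3797.5 in macrophages. Cd8a and Cd8b1 were 2 of the 3 lower members. The other was Rag2, whose call was lost with any array left out (log2 -1.37 to -0.99). In the same-set contrast Rag2 did not pass either (log2 -1.09, adjusted p = 0.0514). Cd8a, which some thymic dendritic cells also express, gave 28.6 and 69.0 in CD80hi mTEC, against 1421.6 and 1106.7 in tDC (log2 -4.66, adjusted p = 0.000138), and Cd8b1, a chain of T cells, gave 32.3 and 87.0 in CD80hi mTEC, against 594.5 and 530.4 in tDC (log2 -3.28, adjusted p = 0.000624). Of the list, 3 were lower and 18 did not pass, where 10.5% of all genes were lower. The defining chain Cd3e was at or near the floor in both, with 4.0 and 5.3 in CD80hi mTEC and 4.1 and 9.6 in tDC, and Cd4 overlapped, with 29.9 and 52.0 in CD80hi mTEC and 43.5 and 42.8 in tDC. Rag1 gave 16.8 and 40.3 in CD80hi mTEC and 77.9 and 184.2 in tDC. Of the 21 markers, 3 and 4 were at or below the filter level on the tDC arrays and none was listed at 0. The part of thymocyte RNA in the tDC cell cycle signal was not tested.

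**Figure D5:**
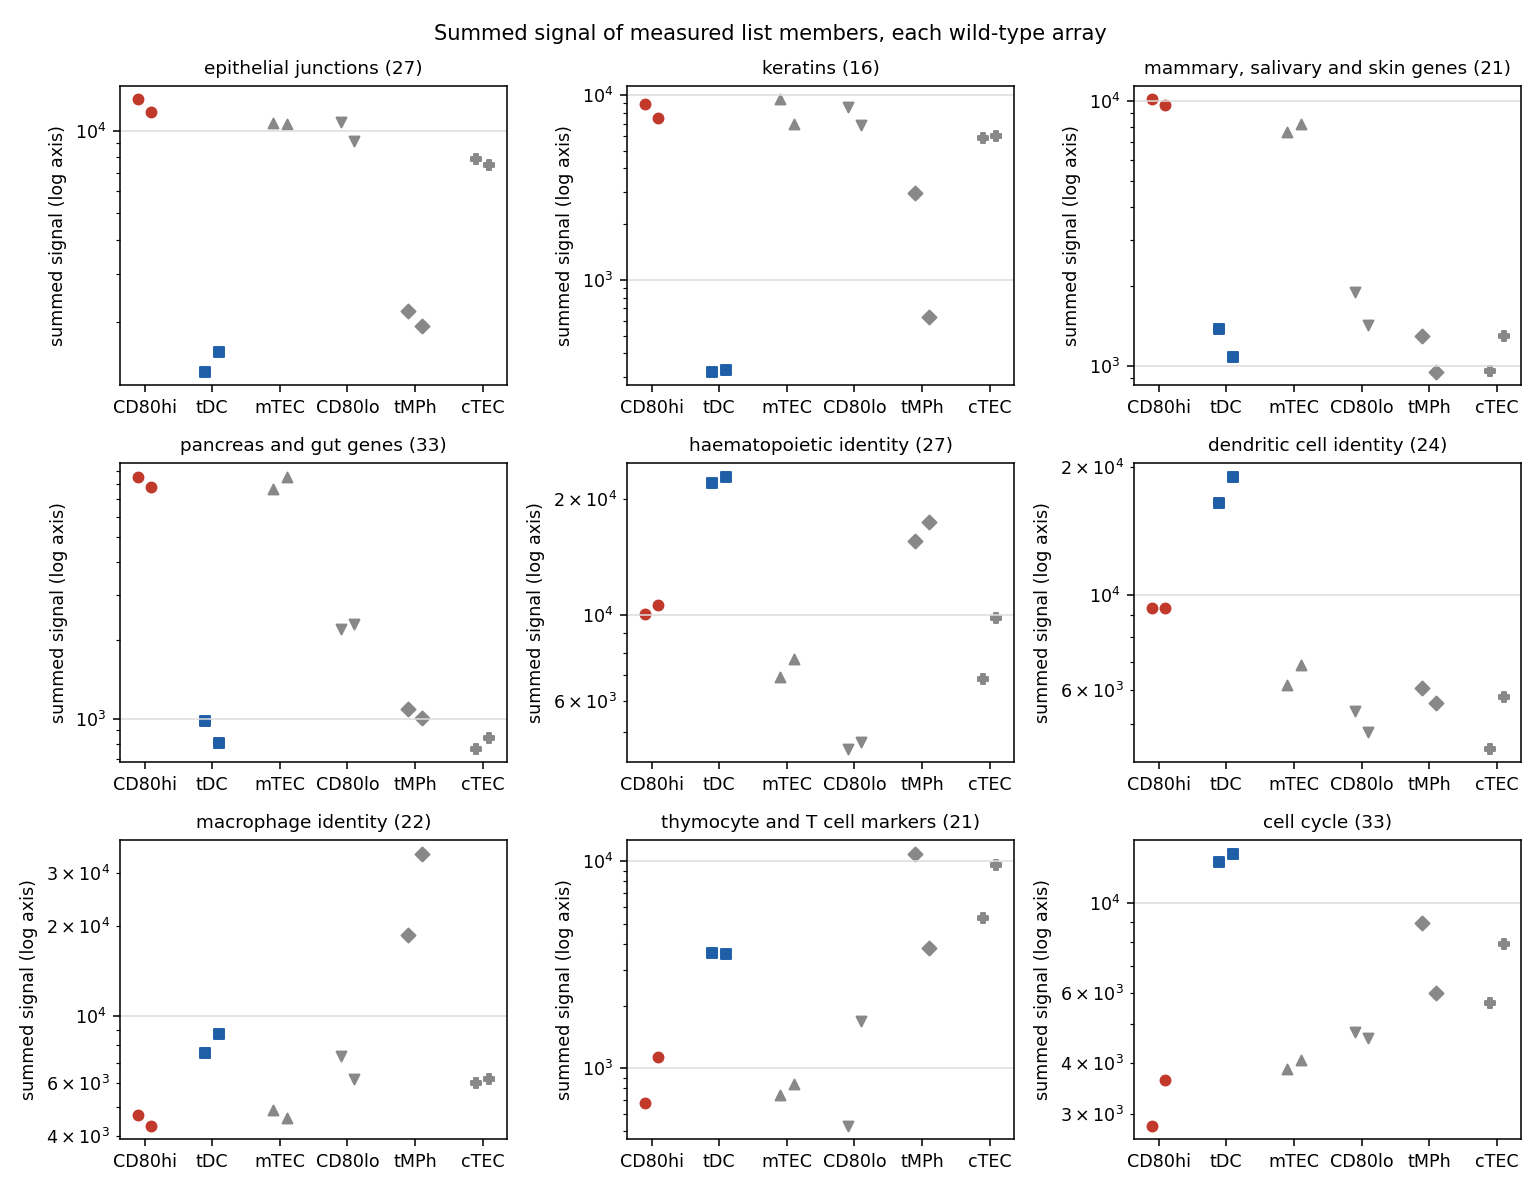
Summed signal (log axis) of the measured members of 9 gene lists on each wild-type array, with WT CD80hi mTEC (circles) left of WT tDC (squares) and the other 4 wild-type groups in grey. The keratin sum is 8923.4 and 7475.1 in CD80hi mTEC and 319.2 and 326.6 in tDC, and the cell cycle sum is 2800.1 and 3628.6 in CD80hi mTEC and 12695.0 and 13287.6 in tDC.

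Markers of further cell types were also counted, beside shares of 19.5% higher and 10.5% lower over all genes. Of 22 fibroblast genes, 10 were higher in CD80hi mTEC and 0 lower by limma (0 lower at an unadjusted p under 0.05), with a summed signal of 1942.3 and 2057.5 in CD80hi mTEC, against 820.1 and 920.5 in tDC, and 4888.8 and 4538.6 in CD80lo mTEC. Dcn, the matrix proteoglycan decorin, gave 291.8 and 232.1 in CD80hi mTEC, against 8.6 and 16.8 in tDC (log2 3.96, adjusted p = 3.34e-05). Of 13 B cell genes, 4 were higher. Fcer2a, a low-affinity IgE receptor, gave 206.9 and 205.8 in CD80hi mTEC, against 11.9 and 5.4 in tDC (log2 4.02, adjusted p = 8.20e-06). Of 11 erythroid genes, 5 were higher, and Alas2, the first enzyme of haem synthesis in red cells, gave 71.7 and 60.0 in CD80hi mTEC, against 4.6 and 9.7 in tDC (log2 2.59). Of 16 genes of plasmacytoid cells and granulocytes, 9 were higher and 1 lower, and Prg2, an eosinophil granule protein, gave 150 and 141.8 in CD80hi mTEC, against 2.4 and 4.5 in tDC (log2 4.20). Of 13 endothelial genes, 1 was higher and 2 were lower. The part of other cells in these signals was not tested.

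Transcription factors of blood cells and stress genes split in both directions. Of 27 haematopoietic transcription factors, 6 were higher and 6 lower, where 19.5% and 10.5% of all genes were called. Spi1, the PU.1 factor of myeloid cells, gave 25.0 and 6.0 in CD80hi mTEC, against 104.3 and 162.2 in tDC (log2 -2.91, adjusted p = 0.00622; -2.18 and 0.0883 without CD80hi mTEC array 2), and Cebpb gave 351.0 and 188.2 in CD80hi mTEC, against 31.5 and 13.9 in tDC (log2 3.33, adjusted p = 0.00114). Spib, a relative of Spi1 which is active in mTEC and in plasmacytoid cells, gave 705.4 and 647.9 in CD80hi mTEC, against 205.7 and 127.9 in tDC (log2 2.03, adjusted p = 0.0114). Of 31 immediate early and stress genes, 3 were higher and 6 lower. Gadd45a, a growth arrest gene, gave 1361.0 and 1900.0 in CD80hi mTEC, against 253.0 and 216.9 in tDC (log2 2.75, adjusted p = 4.80e-05), and Nr4a1, an early gene of antigen receptor signalling in T cells, gave 140.3 and 148.9 in CD80hi mTEC, against 1078.7 and 674.6 in tDC (log2 -2.52, adjusted p = 0.00122). Of 16 ribosomal and housekeeping genes, 2 were lower. Rpl13a was 1 of them, at 213.8 and 243.3 in CD80hi mTEC, against 603.4 and 512.5 in tDC (log2 -1.27, adjusted p = 0.0233), but leaving out any 1 of the 4 arrays ended the call (log2 -1.38 to -1.15, adjusted p 0.0521 to 0.131).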

How the data were processed

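RNA of sorted mouse thymic cells was read on Affymetrix MG-U74Av2 arrays, and the authors deposited 1 linear signal intensity per probe set and array; the labels name no software, scaling or background correction for them. The table held 12488 probe sets, of which 66 were controls and left out. Analysis used log2(signal + 4.8), where 4.8 is the 20th percentile of all values, and probe sets above 17.3, the 40th percentile, on at least 2 arrays. The remaining 9319 were fitted with limma 3.58.1 in R 4.3.3 (group means over 16 arrays, trended eBayes, 8 residual degrees of freedom, two-sided, Benjamini-Hochberg, threshold 0.05). No detection flags were used, so a low signal is a level, not an absence. Of the noncontrol probe sets, 10833 had 1 gene symbol in the platform annotation, 396 several and 1193 none, with symbols updated through RefSeq. The probe set with the highest mean log2 value stood for a gene.

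The cell types, 36 gene lists and rules were chosen with earlier results of these data known. Named were the 12 highest and 12 lowest differences, and all members of the MHC class I, class II, protease and costimulation lists. Also named were up to 3 members with the smallest p in each direction of every other list, the 3 nearest-equal members of each presentation list, and Cd80, Ctss and Aire. The text gives most of these. Il12b, Spib, Mki67, Ptprc, Krt8, Csf2, Sirpa, Cd3e, Cd4, Rag1 and list members with near-equal levels were named after their values were seen, without the alternatives. On simulated data for this comparison (9319 probe sets), 6%, 68%, 94% and 100% of planted changes of log2 1, 2, 3 and 4 were recovered, with 9 of 143 calls false. The simulation drew independent normal values for equal groups without an array-set shift. It planted 50 changes of each size, none in the dimmest probe sets. Its false calls therefore do not describe the real contrast, where many genes are called and set and group cannot be told apart. Alternatives were the constant, the filter, quantile normalisation, the trend, the arrays in the fit, the sample number as a block, each array left out, the mean over probe sets, the same-set and array-set adjusted contrasts and, added after the data were seen, signals capped at the lowest array maximum.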

Additional observations from a re-analysis of the deposited data

How the results depend on the processing

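No named gene changed the direction of a call under the 17 alternatives, and of 151 called named genes 104 kept the call whichever of the 4 arrays was left out, 47 lost it in at least 1 such fit and 9 in all 4. Of the 151, 31 lost the call in at least 1 of the other 13 alternatives. Leaving out 1 array gave 1137 to 1464 higher and 422 to 709 lower probe sets, and 236 to 404 with a shared level, against 1706, 881 and 986; those fits rest on a lone sample in 1 group, assumed to vary like the others. Shared levels numbered 1764 with the larger constant of 17.3, which compresses differences. With the sample number as a replicate block there were 1996 higher, 1144 lower and 1566 shared probe sets. The labels do not say that the numbers pair samples. Deviations of same-numbered arrays from their group means correlated at 0.133 between CD80hi mTEC and tDC, at 0.133 to 0.526 between tDC and each other group, and at 0.0265 to 0.526 over all pairs of groups, with 2 numbers in each. Under the replicate block the calls of Cd80, H2-Eb1, H2-DMb2, Icam1, Cd24a, H2-K1, H2-D1 and H2-Q1 were gained (adjusted p 0.00611 to 0.0484), and no named call was lost. The array-set adjusted contrast gave 1602 higher and 736 lower. Among the named genes it ended 16 calls and added 4. Those added were Cd80 (log2 1.25, adjusted p = 0.0404), Tnfsf9 (log2 1.82, adjusted p = 0.0103), Cd1d1 (log2 1.81, adjusted p = 0.0108) and Cd1d2 (log2 2.12, adjusted p = 0.0182). Cd80 also passed with the constant of 17.3 (log2 0.82, adjusted p = 0.0247). Dim signals limit the low genes: 52.9% to 64.5% of the values on the 4 arrays lay above the filter level.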
